A study of Mus musculus with 6 samples.

Results

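The 9 ETS transcription factors of blood and endothelium described here are *Erg*, *Fli1*, *Ets1*, *Ets2*, *Etv2*, *Etv6*, *Elf1*, *Elk3* and *Gabpa*. They were chosen by name, and all 9 were found among the 24062 genes of the count tables. RNA was sequenced from CD31+ckit+ cells of the E10.5 AGM (the region of aorta, gonads and mesonephros), sorted by Venus fluorescence into a Vmed and a Vhigh fraction, with 3 libraries per fraction numbered 1 to 3. All embryos, in both fractions, were *Gata2*V/+, and the labels give the strain as C57BL/6JOlaHsd. The *Venus* reporter in them follows *Gata2* through an IRES inserted behind its coding sequence, so that the gate itself follows *Gata2* transcription. The dissected tissue also held part of the vitelline and umbilical arteries, and the number of embryos pooled for a library is not given in the sources used here. There was no Venus-negative fraction among these libraries, so levels are compared between the fractions only.

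ETS proteins share a winged helix-turn-helix DNA-binding domain that contacts the core sequence GGAA. In the embryonic aorta, hematopoietic cells arise from endothelium, and both cell types use ETS factors: Erg and Fli1 belong to the heptad of factors, with Gata2, Runx1, Scl (the product of *Tal1*), Lyl1 and Lmo2, that bind together at enhancers of blood stem and progenitor cells. Ets1, Ets2 and Elk3 are also known from endothelial cells, Etv2 starts the hemangiogenic program in mesoderm, Etv6 is a repressor needed for hematopoietic stem cells, Elf1 is expressed in blood and endothelium, and Gabpa binds DNA as a complex with a β subunit at many housekeeping and mitochondrial genes.

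The upstream bases of 3 members are shown because these 3 were higher in Vhigh than in Vmed cells in each pair of same-numbered libraries. They are the 250 bases before the annotated start, taken from RefSeq (GRCm38.p6), 5′ to 3′ on the strand of the gene, with each GGAA or its complement TTCC in capitals. The *Erg* window lies at chr16:95586594-95586843 on the minus strand, the *Etv6* window at chr6:134035450-134035699 on the plus strand and the *Elf1* window at chr14:79480944-79481193 on the plus strand.
Erg: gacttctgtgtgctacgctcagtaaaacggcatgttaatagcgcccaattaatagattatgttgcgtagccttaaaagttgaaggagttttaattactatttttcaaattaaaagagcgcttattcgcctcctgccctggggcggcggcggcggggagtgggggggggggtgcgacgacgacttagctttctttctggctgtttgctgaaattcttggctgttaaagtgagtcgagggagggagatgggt
Etv6: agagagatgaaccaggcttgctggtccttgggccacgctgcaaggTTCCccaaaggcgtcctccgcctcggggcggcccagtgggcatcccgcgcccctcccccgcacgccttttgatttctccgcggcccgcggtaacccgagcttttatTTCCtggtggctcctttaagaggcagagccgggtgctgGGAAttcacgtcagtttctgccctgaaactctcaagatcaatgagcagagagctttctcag
Elf1: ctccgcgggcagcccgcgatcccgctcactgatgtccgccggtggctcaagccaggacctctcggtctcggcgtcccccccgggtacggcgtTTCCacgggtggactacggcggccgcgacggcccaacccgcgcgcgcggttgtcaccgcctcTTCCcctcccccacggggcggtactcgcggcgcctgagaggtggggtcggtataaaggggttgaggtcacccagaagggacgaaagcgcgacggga
The *Erg* window held no GGAA on either strand, the *Etv6* window held 3 and the *Elf1* window held 2. RefSeq windows were matched for 7 of the 9 members, 10 windows in all, because *Erg* and *Elf1* have more than 1 annotated start. *Fli1* and *Ets1* had no entry. GGAA was present on at least 1 strand in 8 of the 10 windows, against 93.4% of 32851 windows of the same length over all genes. The other *Erg* windows held 4 and 2 matches, the second *Elf1* window held none, and the *Etv2* window held the most, 10. The longer form CCGGAAGT (in 2.88% of all windows, each counted under GGAA too) and the Runx form TGTGGT (in 14.0%) were in none of the 10, and the Gata form AGATAA (in 9.99%) was in 1 *Erg* window. All 4 forms were searched on both strands, and a match in these letters is a description only.

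The libraries held between 8296831 and 12035206 counts on genes, so that 1 count was worth between 0.0831 and 0.121 CPM (counts scaled to a common total of gene counts) and 3 counts, taken as the smallest number to be shown, between 0.249 and 0.362 CPM. They differed in breadth: library 1 of Vhigh held counts on 10427 genes and library 2 of Vhigh on 18460. Between 13.5% and 60.7% of uniquely aligned reads fell on no feature that was counted for a gene. In Vmed and Vhigh these shares were 39.6% and 39.0% (number 1), 49.2% and 60.7% (number 2), and 15.4% and 13.5% (number 3). They were close within numbers 1 and 3, while Vmed library 2 lay nearer to the libraries numbered 1 than to its partner. Because the libraries numbered 1 stood apart for several members, results are given with and without them. This choice was made after the values had been seen, so p-values without these libraries are descriptions only. *Kit*, the receptor used for the sort, had 64.1, 207.5 and 59.1 CPM in Vmed libraries 1 to 3 and 254.5, 490.3 and 521 CPM in the Vhigh libraries. *Pecam1*, which encodes CD31, was detected in every library, between 118 and 569.5 CPM. *Gata2* had 50.3, 29.4 and 68.4 CPM in Vmed and 39.2, 82.5 and 142 CPM in Vhigh cells, so the fractions overlapped in the transcript that the gate follows.

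The question for the ETS factors was which of them made up the family in these cells and whether their levels differed between the fractions. *Fli1* had the highest level per length of transcript, *Elk3* and *Ets1* came next, and *Erg* and *Etv2* were at the bottom. The clearest contrast was between *Elf1*, which was higher in all 3 Vhigh libraries than in any Vmed library, and *Ets1*, which was lower in Vhigh cells in each of the 3 same-numbered pairs. None of the 9 differences passed the test over all genes. In edgeR (quasi-likelihood test, Benjamini-Hochberg adjustment), 0 of the 9 members passed, as did 0.0% of the 12688 genes tested, and the adjusted p was 0.9998 for each member. Fold changes are given below as log2 values of Vhigh over Vmed with their standard error (SE) from this fit. At an unadjusted p under 0.05, 0 of the 9 members and 259 genes (2.04%) passed. Over all genes, edgeR's likelihood ratio test called 21 and DESeq2 called 51, with no member among them. Replicate numbers were taken to pair the libraries, less surely for number 1 than for numbers 2 and 3. With the number as a block, 2 of the 9 members, *Elf1* and *Ets1*, had an unadjusted p under 0.05 in the quasi-likelihood test, against 4.16% of all genes tested. The likelihood ratio test with the block called 0.583% of all genes and 0 of the 9 members. In the pairs, 3 of 9 members were higher in Vhigh cells in every pair (15.2% of all genes tested) and 1 was lower in every pair (15.4%). The values of the 2 fractions did not overlap for 1 member, which was higher (4.15% of all genes), and for 0 members in the lower direction (4.71%). The members' shares rest on 9 genes and are not tested here.

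**Figure D1:**
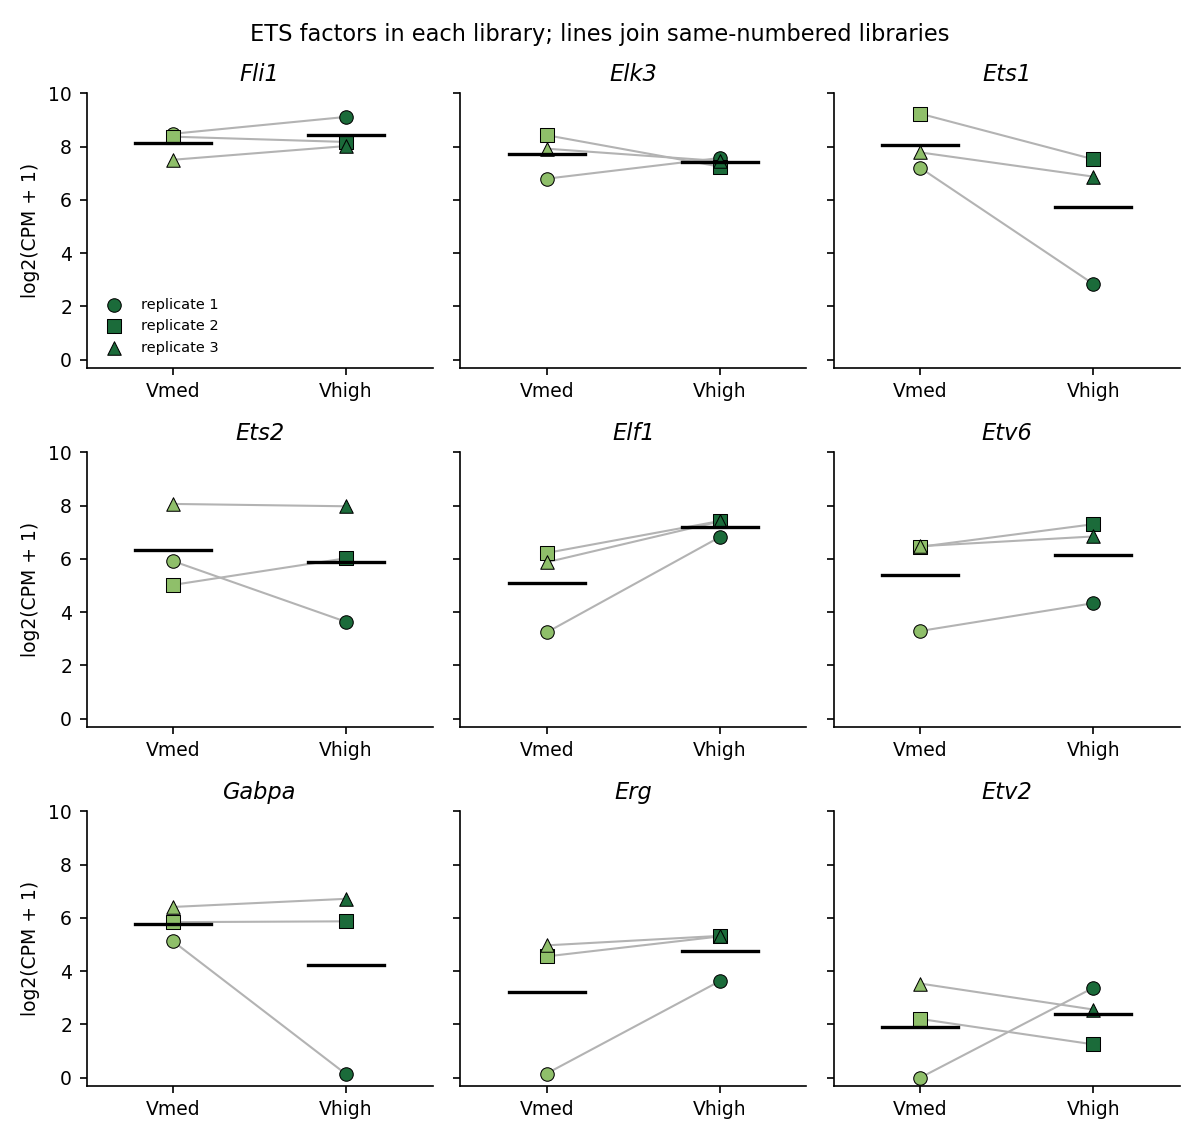
Level of each ETS member as log2(CPM + 1) in the 3 Vmed (light) and 3 Vhigh (dark) libraries, with lines joining libraries of the same number and bars at the mean of each fraction. *Elf1* is the member whose Vhigh libraries, from 112 to 171 CPM, all lie above the Vmed libraries, from 8.47 to 73.9 CPM, and the lowest value of 8 of the 9 members, *Elf1* and *Ets1* among them, lies in a library numbered 1.

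Levels of different genes were compared as RPKM (CPM per kilobase of exon), on the scale of log2(RPKM + 0.1). Over all 6 libraries the order ran from *Fli1* through *Elk3*, *Ets1*, *Ets2*, *Elf1*, *Etv6*, *Gabpa* and *Erg* to *Etv2*. *Fli1* ranked first in 5 of 6 libraries, and *Elk3* ranked first in Vmed library 3. The mean RPKM was 83.3 ± 27.3 (SD, n = 3) in Vmed and 105.6 ± 46.8 (SD, n = 3) in Vhigh cells for *Fli1*. It was 51.1 ± 25.8 in Vmed and 37.9 ± 4.27 in Vhigh cells for *Elk3*, and 38.2 ± 29.0 in Vmed and 12.1 ± 10.6 in Vhigh cells for *Ets1* (SD, n = 3). At the other end, *Erg* had 5.10 ± 4.53 RPKM in Vmed and 8.57 ± 4.58 in Vhigh cells, and *Etv2* had 4.52 ± 5.14 and 4.98 ± 3.83 (SD, n = 3). Neighbours in this order were called apart where their mean difference within libraries was larger than its SD. Over all libraries only *Fli1* and *Elk3* were apart, by 1.09 ± 0.85 on the log2 scale (SD, n = 6), with *Fli1* the higher in 5 of 6 libraries, and the other 7 of 8 neighbouring pairs did not differ beyond their spread. Among these 7, *Elk3* lay above *Ets1* in 6 of 6 libraries, by 1.56 ± 2.06 (SD, n = 6).

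The order was not the same in both fractions. In Vmed cells it was *Fli1*, *Elk3*, *Ets1*, *Ets2*, *Gabpa*, *Etv6*, *Elf1*, *Erg* and *Etv2*. In Vhigh cells it was *Fli1*, *Elk3*, *Elf1*, *Etv6*, *Ets2*, *Erg*, *Ets1*, *Etv2* and *Gabpa*. Among Vmed neighbours, *Elk3* lay above *Ets1* by 0.54 ± 0.48 and *Etv6* above *Elf1* by 0.46 ± 0.29 (log2 scale, SD, n = 3), in 3 of 3 libraries each. In Vhigh cells *Fli1* lay above *Elk3* by 1.40 ± 0.50 and *Elk3* above *Elf1* by 0.78 ± 0.49 (log2 scale, SD, n = 3). The place of *Ets1* and *Elf1* differed between the orders, and *Gabpa* stood last in Vhigh cells, where 1 library held a single count of it. No test of the change in order was made.

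**Figure D2:**
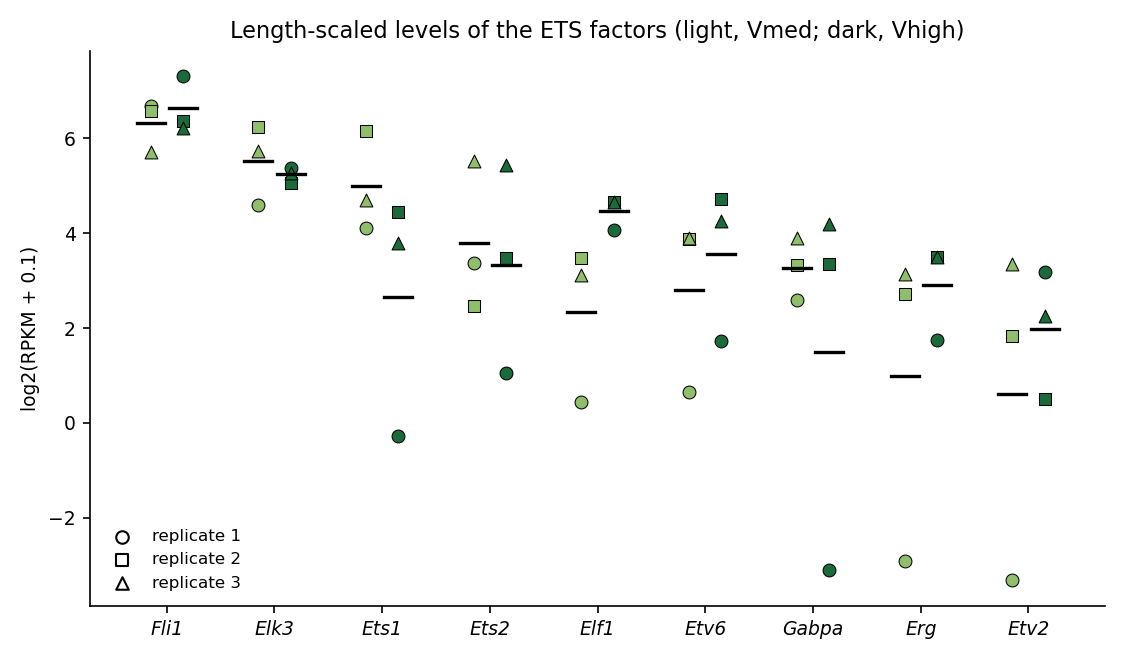
Level of each member on the log2(RPKM + 0.1) axis per library, for Vmed (light) and Vhigh (dark) cells, with bars at the mean of each fraction and members sorted by their mean over all libraries. *Fli1* and *Elk3* hold the top places in both fractions, and points of the lower members spread widely between libraries.

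*Erg* and *Fli1* encode closely related ETS proteins of the heptad. *Erg*, on chr16:95359169-95586593 (minus strand, GRCm38), had 0.114, 22.5 and 30.4 CPM in Vmed libraries 1, 2 and 3, the first of them a single count with an exact Poisson 95% interval of 0.0029 to 0.638 CPM. In Vhigh cells it had 11.4, 38.6 and 39.1 CPM. Each Vhigh library was therefore above its Vmed partner, by 3.47, 0.75 and 0.36 on the log2(CPM + 1) scale, while the groups overlapped because Vhigh library 1 lay below Vmed libraries 2 and 3. Its log2 fold change was 0.70 (SE 1.51), 1.86 (SE 1.44) with the replicate block and 0.48 (SE 0.69) without the libraries numbered 1. The exact two-sided permutation test gave p = 0.5, where 3 libraries against 3 cannot go below 0.1. Such intervals, here and for the other members, cover counting error only, since reads carry no molecular identifiers. In these bulk samples, fewer cells of a type and less RNA per cell cannot be told apart.

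*Fli1*, on chr9:32422204-32542861 (minus strand), had 358, 331.6 and 181 CPM in Vmed and 556, 289 and 259.7 CPM in Vhigh cells. It was abundant in every library, and the fractions overlapped. The Vhigh library was higher in pairs 1 and 3 and lower in pair 2. A log2 fold change of 0.35 (SE 0.51) was fitted, and of 0.04 (SE 0.48) without the libraries numbered 1. The log2 ratio of *Erg* to *Fli1* within a library, on the scale of RPKM + 0.1, was -9.59, -3.85 and -2.56 in Vmed and -5.56, -2.88 and -2.71 in Vhigh cells, so that *Fli1* exceeded *Erg* in all 6 libraries. Its mean was -5.33 ± 3.75 in Vmed and -3.72 ± 1.598 in Vhigh cells (SD, n = 3). The difference of 1.61 had p = 0.7 by the exact two-sided permutation test and turned to -0.52 when Vmed library 1, with its single *Erg* count, was left out.

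*Ets1* and *Ets2* arose from an ancestral gene by duplication and encode activators that respond to Ras and MAP kinase signals. *Ets1*, on chr9:32636221-32757820 (plus strand), had 147, 604 and 219.8 CPM in Vmed and 6.19, 184 and 117 CPM in Vhigh cells. In every pair the Vhigh library was lower, with differences of -4.36, -1.71 and -0.91 on the log2(CPM + 1) scale, although Vhigh library 2 exceeded Vmed library 1. The fold change of *Ets1* was -1.75 on the log2 scale (SE 0.91), with an unadjusted p of 0.0919 in edgeR. With the replicate block it was -2.34 (SE 0.66), with an unadjusted p of 0.0208 and an adjusted p of 0.987 in edgeR, and the likelihood ratio test of edgeR with the block gave an adjusted p of 0.249. Without the libraries numbered 1, left out after the values had been seen, it was -1.53 (SE 0.58), with an unadjusted p of 0.0384 in edgeR. In that fit 2 of the 9 members and 451 of 13942 genes had an unadjusted p under 0.05, and 0 genes passed the adjusted threshold. Over all 6 libraries the exact two-sided permutation test gave p = 0.2.

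*Ets2*, on chr16:95702075-95721051 (plus strand), had 59.5, 31.6 and 267 CPM in Vmed and 11.4, 64.3 and 251 CPM in Vhigh cells. The libraries numbered 3 held the most in both fractions, and the pairs went in different directions, with pair 2 higher in Vhigh cells and pairs 1 and 3 lower. The fit gave *Ets2* a log2 fold change of -0.18 (SE 1.06), -0.47 (SE 0.64) with the replicate block and 0.04 (SE 1.08) without the libraries numbered 1. The log2 ratio of *Ets1* to *Ets2* was 0.74, 3.68 and -0.83 in Vmed and -1.32, 0.96 and -1.65 in Vhigh cells. It was lower in the Vhigh library of each pair, with means of 1.20 ± 2.29 and -0.67 ± 1.42 (SD, n = 3), and the difference of -1.87 had p = 0.3 by the exact two-sided permutation test.

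*Etv2*, on chr7:30633616-30635852 (minus strand), acts early in mesoderm and is switched off as endothelium matures. It had 0, 3.62 and 10.6 CPM in Vmed and 9.38, 1.38 and 4.90 CPM in Vhigh cells, the lowest mean of the 9 members. The Vmed library without a count allows up to 0.343 CPM, at 3 counts. Vhigh library 1 was above its partner and Vhigh libraries 2 and 3 were below theirs. Its log2 fold change was 0.19 with an SE of 2.19, so a difference of several-fold in either direction lay within that error. The fold change became -1.21 (SE 1.92) without the libraries numbered 1.

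*Etv6* and *Elk3* encode ETS proteins that mainly repress transcription. *Etv6*, on chr6:134035700-134270158 (plus strand), had 8.81, 86.9 and 88.2 CPM in Vmed and 19.2, 157 and 114 CPM in Vhigh cells. Each Vhigh library was above its partner, by 1.04, 0.85 and 0.37 on the log2(CPM + 1) scale, and both libraries numbered 1 were far below the other libraries. For *Etv6* the log2 fold change was 0.58 (SE 0.95), 0.75 (SE 0.48) with the block and 0.55 (SE 0.49) without the libraries numbered 1.

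*Elk3*, on chr10:93247414-93311135 (minus strand), is a ternary complex factor that acts with the serum response factor. It had 110.4, 345 and 242 CPM in Vmed and 189.9, 151.5 and 175.5 CPM in Vhigh cells. The Vhigh libraries lay close together, with an SD of 19.4 CPM against 117.5 CPM in Vmed (n = 3), and all 3 were within the range of the Vmed libraries. For *Elk3* the log2 fold change was -0.43 (SE 0.52), and -0.90 (SE 0.46) without the libraries numbered 1.

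*Elf1*, on chr14:79481194-79582494 (plus strand), encodes an activator of the ELF subfamily, with known targets among genes of blood and endothelium. It had 8.47, 73.9 and 57.7 CPM in Vmed and 112, 171 and 169 CPM in Vhigh cells. All 3 Vhigh libraries were above all 3 Vmed libraries, with means of 46.7 ± 34.1 and 150.6 ± 33.4 CPM (SD, n = 3), a ratio of 3.23. The differences within pairs were 3.58, 1.20 and 1.53 on the log2(CPM + 1) scale. On the log2 scale the fitted fold change of *Elf1* was 1.67 (SE 0.75), with an unadjusted p of 0.0548 in edgeR. With the replicate block it was 2.08 (SE 0.62), with an unadjusted p of 0.0228 and an adjusted p of 0.987 in edgeR, and the likelihood ratio test of edgeR with the block gave an adjusted p of 0.408. Without the libraries numbered 1, left out after the values had been seen, it was 1.30 (SE 0.48), with an unadjusted p of 0.0344 in edgeR. That fit gave 451 of 13942 genes an unadjusted p under 0.05, and 0 genes passed its adjusted threshold. The exact two-sided permutation test gave p = 0.1, the smallest that 3 against 3 allows. Exons of the opposite strand gene *Wbp4* cover 4.85% of the *Elf1* exons, and the strand setting of the counting is not given in the sources used here, so reads of the shared part cannot be assigned.

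*Gabpa*, on chr16:84834925-84863779 (plus strand), encodes the DNA-binding subunit of the GABP complex. It had 33.8, 56.4 and 84.3 CPM in Vmed and 0.0938, 57.6 and 104.4 CPM in Vhigh cells. The low Vhigh value was a single count, with an exact Poisson 95% interval of 0.0024 to 0.523 CPM, and the pairs numbered 2 and 3 differed by 0.03 and 0.31 on the log2(CPM + 1) scale. For *Gabpa* the log2 fold change was -0.17 (SE 1.38), -1.42 (SE 1.41) with the replicate block and 0.16 (SE 0.62) without the libraries numbered 1. *Gabpb1*, which encodes its β subunit, had 84.3, 110.2 and 130.6 CPM in Vmed and 79.4, 84.4 and 134.8 CPM in Vhigh cells. In Vhigh library 1, where *Gabpa* had a single count, *Gabpb1* had the lowest of its 6 values but lay close to its Vmed partner (-0.086 on the log2(CPM + 1) scale). *Gabpb2*, for the other β subunit, had 11.2, 51.1 and 51.7 CPM in Vmed and 23.8, 48.0 and 40.1 CPM in Vhigh cells. Exons of *Atp5j* on the opposite strand cover 6.98% of the *Gabpa* exons, those of *Cdk17* cover 6.95% of the *Elk3* exons, and those of *Gm17089* cover 2.26% of the *Etv6* exons.

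**Figure D3:**
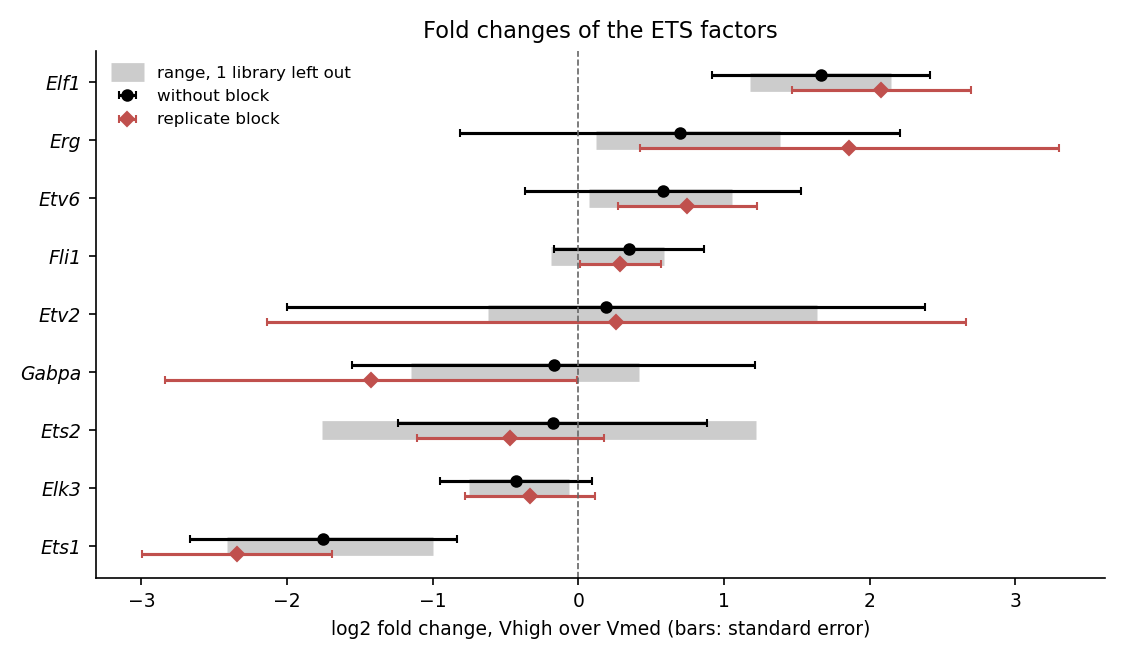
Log2 fold change (Vhigh over Vmed) of each member with its standard error, from edgeR's fit without (circles) and with (diamonds) the replicate number as a block, with grey bars for the range when 1 library at a time was left out. *Elf1*, from 1.18 to 2.15, stays above 0 and *Ets1*, from -2.41 to -0.998, below 0 over the grey bars. *Erg* (from 0.118) and *Etv6* (from 0.073) also stay above 0 and *Elk3* (up to -0.063) below it, while the grey bars of *Fli1*, *Etv2*, *Gabpa* and *Ets2* cross 0.

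As shares of the summed RPKM of the 9 members, *Fli1* took 62.9%, 32.5% and 22.2% in Vmed and 67.6%, 37.1% and 30.0% in Vhigh cells. *Ets1* took 10.6%, 24.3% and 11.1% in Vmed and 0.310%, 9.72% and 5.53% in Vhigh cells. *Elf1* took 0.770%, 3.74% and 3.66% in Vmed and 7.05%, 11.4% and 10.1% in Vhigh cells. A share within a library does not depend on the scaling between libraries, and on this measure every Vhigh library was above every Vmed library for *Elf1*, as in CPM. For *Ets1* every Vhigh share was below every Vmed share, whereas its CPM overlapped. A share also depends on the other members. *Ets1* had 21.7 RPKM in Vhigh library 2 and 17.3 RPKM in Vmed library 1, and the summed RPKM of these libraries was 223 and 163. Their *Ets1* shares, 9.72% and 10.6%, therefore stood in the reverse order. Shares without overlap were not counted over other genes. The remaining members took mean shares of 21.2% ± 5.66 in Vmed and 16.0% ± 1.46 in Vhigh cells (SD, n = 3) for *Elk3*, and less than *Elk3* on average for the others. The summed RPKM of the 9 members was 163, 293 and 234.5 in Vmed and 236, 223 and 249 in Vhigh cells, which overlapped.

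**Figure D4:**
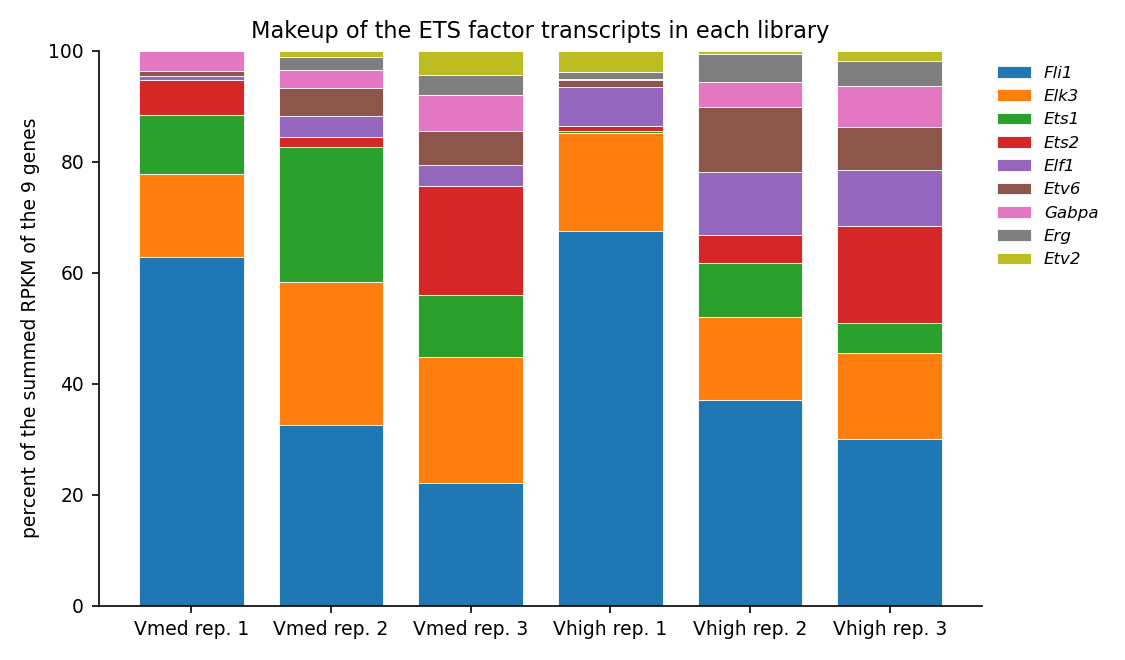
Share of each member, in percent, in the summed RPKM of the 9 members in each of the 6 libraries. *Fli1* takes the largest share in all libraries but Vmed library 3, and the *Elf1* share is between 7.05% and 11.4% in Vhigh and between 0.770% and 3.74% in Vmed libraries.

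The ratio of *Ets1* to *Elf1* was formed after the values of both had been seen and is given without a test. On the log2 scale of RPKM + 0.1 it was 3.68, 2.69 and 1.59 in Vmed and -4.33, -0.22 and -0.86 in Vhigh cells, so that *Ets1* was the higher per length in all 3 Vmed libraries and *Elf1* in all 3 Vhigh libraries. In Vmed libraries 1, 2 and 3 *Ets1* exceeded *Elf1* by 12.8-fold, 6.45-fold and 3.00-fold, and in the Vhigh libraries *Elf1* exceeded *Ets1* by 20.2-fold, 1.17-fold and 1.82-fold.

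**Figure D5:**
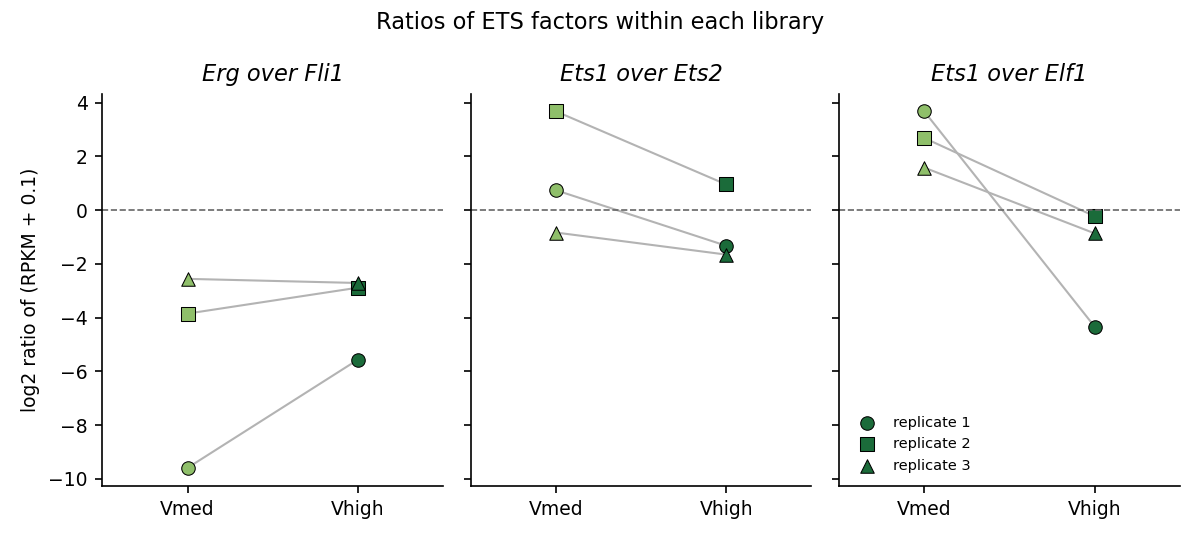
Log2 ratios within each library, on the scale of RPKM + 0.1, of *Erg* to *Fli1*, *Ets1* to *Ets2* and *Ets1* to *Elf1*, with libraries of the same number joined. The *Erg* to *Fli1* ratio is below 0 in all libraries, and the *Ets1* to *Elf1* ratio lies above 0 in the Vmed and below 0 in the Vhigh libraries.

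The other 17 genes of the ETS family, with the 9 members 26 in all, were measured too. The members held between 66.7% and 90.3% of the summed RPKM of the family. By mean log2 level the members took places 1 to 5, 7, 9, 12 and 13 of 26, interrupted by *Elf2*, *Spi1*, *Elf4* and *Etv5*. Of the 17, 10 passed the filter on low counts and 0 passed the adjusted threshold, with 6 higher and 4 lower in Vhigh cells by sign and a median log2 fold change of 0.20, against -0.02 over all tested genes. That median was -0.60 with the replicate block and -0.83 without Vhigh library 3. *Elf2*, a close relative of *Elf1*, had 79.6, 23.9 and 97.4 CPM in Vmed and 145.8, 80.2 and 192.7 CPM in Vhigh cells, higher in each pair but with overlapping fractions (log2 fold change 1.04, SE 0.70). *Spi1*, which encodes the myeloid factor PU.1, had 12.6, 2.89 and 78.2 CPM in Vmed and 20.2, 4.97 and 174.7 CPM in Vhigh cells. *Elf4* had 20.8, 62.6 and 41.9 CPM in Vmed and 0.469, 72.8 and 113.5 CPM in Vhigh cells, and *Etv5* had 2.40, 36.4 and 25.0 CPM and 39.8, 9.12 and 23.9 CPM.

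Among 18 genes whose products act with ETS factors, all were tested, 0 passed the adjusted threshold, 11 were higher and 7 lower by sign, and the median log2 fold change was 0.40 (-0.001 without Vmed library 1). *Runx1*, a heptad factor that binds next to ETS sites, had 4.58, 30.5 and 31.2 CPM in Vmed and 41.9, 114 and 140.6 CPM in Vhigh cells, without overlap (log2 fold change 2.12, unadjusted p = 0.0411, adjusted p = 0.9998 by edgeR). *Tal1* did not overlap either, with 26.7, 30.0 and 39.5 CPM in Vmed and 94.5, 51.7 and 73.9 CPM in Vhigh cells. *Fos*, an AP-1 subunit that joins ETS proteins at composite sites, was the gene without overlap in the other direction, with 178, 305 and 385 CPM in Vmed and 33.8, 89.0 and 146 CPM in Vhigh cells (log2 fold change -1.73, SE 0.59, adjusted p = 0.9998 by edgeR). Its partner *Jun* spread from 10.6 to 416 CPM in Vmed and from 24.3 to 511 CPM in Vhigh cells. *Ncor1* and *Cbfb*, a corepressor and the partner of Runx1, overlapped between the fractions.

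Of 25 genes known as targets of ETS factors in endothelium, blood or megakaryocytes, all were tested and 0 passed the adjusted threshold. By sign, 10 were higher and 15 lower in Vhigh cells, with a median log2 fold change of -0.31 that turned to 0.38 without Vmed library 3. In the partner list, too, are 5 of these genes, among them *Runx1* and *Tal1*, which were higher in Vhigh cells without overlap. *Pf4*, a chemokine of platelet granules, had 477, 381 and 150.4 CPM in Vmed and 132.5, 18.2 and 12.96 CPM in Vhigh cells, without overlap (log2 fold change -2.56, SE 0.88, unadjusted p = 0.0205, adjusted p = 0.9998 by edgeR). *Gp9*, a subunit of the platelet von Willebrand factor receptor, had 24.5, 42.4 and 29.9 CPM in Vmed and 21.3, 16.3 and 13.8 CPM in Vhigh cells, also without overlap. The endothelial junction gene *Esam* had 223, 471 and 461.5 CPM in Vmed and 69.0, 274 and 354.5 CPM in Vhigh cells, lower in each pair with overlapping fractions. *Kdr* and *Tek*, which encode endothelial receptor tyrosine kinases, had log2 fold changes of -0.74 (SE 0.83) and -1.01 (SE 0.81), with overlapping fractions. All 11 targets of the GABP complex were tested, with 0 past the adjusted threshold of edgeR, 8 higher and 3 lower by sign and a median log2 fold change of 0.42. *Tfam*, the mitochondrial transcription factor, had 112, 60.4 and 50.03 CPM in Vmed and 169.9, 126 and 113 CPM in Vhigh cells, without overlap, while *Atp5b*, *Rpl32*, *Cox4i1* and *Sdhb*, the most abundant of the list, overlapped.

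Marker lists of blood and endothelium, and of cell types that a CD31+ckit+ sort would be meant to remove (mesenchymal and neural cells), were read beside these results. No marker passed the adjusted threshold, and the lists are given by sign, by genes without overlap and by summed CPM. Of all genes tested, 4.15% were higher and 4.71% lower in Vhigh cells without overlap. All 10 hematopoietic markers were higher in Vhigh cells by sign, 5 of them without overlap. Their sums overlapped, with 635 to 1562 CPM in Vmed and 1444 to 3450 CPM in Vhigh cells. *Myb*, a factor of blood progenitors, had 1.83, 1.33 and 5.97 CPM in Vmed and 73.3, 198.5 and 104.3 CPM in Vhigh cells. Of 10 endothelial markers 9 were lower by sign and 1, *Emcn*, did not overlap, and the sums overlapped (1352 to 5607 CPM in Vmed, 1037 to 3776 CPM in Vhigh cells). All 9 macrophage markers were lower by sign, 5 without overlap, at 872 to 1629 CPM in Vmed and 127 to 495.6 CPM in Vhigh cells, and *Emr1* (now *Adgre1*) had 60.1, 34.6 and 29.6 CPM in Vmed and 0, 0 and 0.249 CPM in Vhigh cells. Of 9 mesenchymal markers 8 were lower by sign, 6 without overlap, at 2021 to 4627 CPM and 274 to 652 CPM, and *Lum*, a matrix proteoglycan gene, had 428, 1341 and 487 CPM in Vmed and 64.5, 45.9 and 11.6 CPM in Vhigh cells. The megakaryocyte sums overlapped (461 to 934 CPM in Vmed, 165 to 493.5 CPM in Vhigh cells), with 5 of 8 genes lower by sign and 2 without overlap, *Pf4* and *Gp9*. Erythroid sums (180.4 to 601 CPM and 98.2 to 233 CPM, 1 of 8 genes without overlap) and neural sums (55.4 to 195 CPM and 10.1 to 119.9 CPM, 0 of 6 genes without overlap) overlapped as well. Embryonic globin RNA was present, with *Hbb-y* at 281, 133 and 83.6 CPM in Vmed and 102, 22.01 and 34.2 CPM in Vhigh cells, while *Hba-a1* was at 0 in all 6 libraries. Reads without a unique alignment were not counted, so the value of *Hba-a1* does not show that its RNA was absent. Among neural genes *Nes* reached 168 CPM and *Sox2* was at 0 in 5 of 6 libraries. The summed macrophage and mesenchymal markers separated the fractions as *Elf1* did, in the opposite direction, and the part of these cell types in the results for *Elf1* and *Ets1* was not tested.

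Finally, the genes whose levels over the 6 libraries were most like those of 3 members were sought among 9557 tested genes with a mean of at least 10 CPM, by the root mean square (RMS) difference of log2(CPM + 1) after each gene's own mean had been subtracted. The measure is a description, since the 6 libraries share depth and fraction. The closest to *Erg*, whose own RMS was 1.81, were *Top3b* (0.204), *Myc* (0.261) and *Fgd5* (0.286), and *Etv6* and *Elf1* stood at places 112 and 144, whereas *Fli1* stood at place 5247. In Vmed library 1, where *Erg* had a single count, *Top3b*, *Myc* and *Fgd5* were at their lowest, at 1.83, 5.83 and 2.17 CPM. *Etv6* and *Elf1* were also at their lowest there, at 8.81 and 8.47 CPM, while *Fli1* had 358 CPM. How far these places rest on that library was not tested. The closest to *Fli1* (own RMS 0.487) were *Aamdc* (0.105), *Abt1* (0.111) and *Sri* (0.132). The closest to *Ets1* (own RMS 1.97) were *9930012K11Rik* (0.285), *Piga* (0.285) and *Mknk1* (0.304), with *Gabpa* at place 906. *Piga* and *9930012K11Rik* had at most 1 count in Vhigh library 1, the library in which *Ets1* was at 6.19 CPM.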

How the data were processed

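Counts of reads per gene were deposited by the authors for 3 Vmed and 3 Vhigh libraries, without normalization. Per the paper, SMARTer and TruSeq v2 libraries were read as single reads on a HiSeq2500. The submitters' processing notes name TopHat, Bowtie 1.1.2, HTSeq and GRCm38/mm10, while the gene annotation and the strand setting of the counting are not given in the sources used here. Lines for reads not assigned to a gene were left out of totals and tests.

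From these counts, CPM used the total of gene counts in each library, and RPKM the exon-union length in GENCODE M21, where 22750 symbols were found as written, 950 by an older symbol and 362 not at all. Genes kept by filterByExpr (12688 of 24062) were normalized by TMM and compared by the quasi-likelihood test of edgeR 4.0.16 in R 4.3.3, with the fraction as the only term. P-values were adjusted by Benjamini-Hochberg over all tested genes at 0.05. Single genes were also compared over the 20 arrangements of libraries by exact permutation of log2(CPM + 1), two-sided. The quasi-likelihood test was checked on simulated counts with a smaller spread between libraries than was found here. That check does not show the power of the test in these data.

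Labels give replicate numbers 1 to 3 in both fractions. Deviations from the fraction means correlated between same-numbered libraries at 0.212, 0.207 and 0.388, and between libraries of different number from -0.289 to -0.006, so the numbers were taken to pair the libraries. By chi-square per degree of freedom between the gene counts of 2 libraries, pairs 2 and 3 were the closest, at 93.7 and 101. Pair 1 stood at 230, while Vmed library 1 stood at 144 from Vmed library 2, so the pairing is less certain for number 1. What a number marks is not stated in the labels. The study describes independent experiments, and p-values measure the spread between these libraries. Alternatives were RLE and library-size normalization, other filters, the likelihood ratio test, DESeq2 1.42.0, the replicate block, each library left out in turn, other pseudocounts and transcript lengths. Leaving out both libraries numbered 1 was added after seeing the data.

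The members and gene lists were chosen with earlier results of these data known. The text names the 9 members, the sorting genes, from each ETS list (family, partners, targets, GABP targets) the 4 of highest mean CPM and those without overlap, and the 3 genes most like *Erg*, *Fli1* and *Ets1*. Cell type markers, *Gabpb1*, *Gabpb2* and the members among the likenesses were named after their values were seen, and so was the ratio of *Ets1* to *Elf1*.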

Additional observations from a re-analysis of the deposited data

How the results depend on the processing

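With no filter on low counts 37 genes passed the adjusted threshold, with the likelihood ratio test 21, with DESeq2 51 and with the replicate block and the likelihood ratio test 74, against 0 for the quasi-likelihood test. Leaving out 1 library at a time gave 0 to 1. With the replicate block and the quasi-likelihood test 0 genes passed.

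*Elf1* and *Ets1* kept their direction under every setting run. Their log2 fold changes ranged from 1.18 to 2.15 and from -2.41 to -0.998 when 1 library was left out. Without both libraries numbered 1, the log2 fold change turned to 0.039 for *Ets2*, -1.21 for *Etv2* and 0.16 for *Gabpa*, and the difference of mean log2(CPM + 1) to 0.46, -0.96 and 0.17. When 1 library was left out, the log2 fold change ranged from -0.19 to 0.59 for *Fli1*, from -1.76 to 1.22 for *Ets2*, from -0.62 to 1.64 for *Etv2* and from -1.15 to 0.41 for *Gabpa*. The difference of mean log2(CPM + 1) then ranged from -0.011 to 2.40 for *Erg*, from -0.022 to 0.53 for *Fli1*, from -1.50 to 0.67 for *Ets2*, from -0.47 to 1.29 for *Etv2*, from -0.30 to 1.67 for *Etv6*, from -0.75 to 0.068 for *Elk3* and from -2.79 to 0.50 for *Gabpa*. The log2 ratio difference of *Erg* to *Fli1* ranged from -0.52 to 3.00, and that of *Ets1* to *Ets2* from -2.89 to -0.63. The cause of these reversals was not tested. With the replicate block, the sign-flip test of pairs cannot go below 0.25, and the block changed no direction of a member, though it moved the log2 fold change of *Gabpa* to -1.42, of *Erg* to 1.86 and of *Ets2* to -0.47.

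*Fli1*, *Elk3* and *Etv2* held places 1, 2 and 9 of the level order under all alternatives, while *Elf1* ranged from place 3 to 7. Counts of 0 or 1 for *Erg*, *Etv2* and *Gabpa* in libraries numbered 1 limit what their differences can show.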
